A study of Arabidopsis thaliana with 42 samples.

Results

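The 10 genes described here encode 6 cyclins and 4 cyclin-dependent kinases of the dividing Arabidopsis thaliana cell. They were taken by locus from a count table of 27667 loci. The B1-type cyclins were CYCB1;1 (AT4G37490), CYCB1;2 (AT5G06150) and CYCB1;4 (AT2G26760). The other cyclins were the B2-type CYCB2;1 (AT2G17620), the A-type CYCA1;1 (AT1G44110) and the D-type CYCD3;1 (AT4G34160), each the one member of its type. The kinases were CDKB1;1 (AT3G54180), CDKB1;2 (AT2G38620), CDKB2;1 (AT1G76540) and CDKB2;2 (AT1G20930). All 10 passed the filter on low counts in every fit.

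Cyclins are regulatory subunits that switch on cyclin-dependent kinases, and their rise and destruction set the order of the cell cycle. In plants the mitotic B-type cyclins and several A-type cyclins are made around the entry into mitosis, with the B-type kinases, a class found in plants and green algae. D-type cyclins act earlier, where hormones and sugars promote the start of a new cycle. In a seedling this machinery is transcribed mainly in the shoot and root meristems, in young organs and in the stomatal lineage, which are a small part of the tissue.

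The study sequenced RNA from whole seedlings aged 5 days, in 14 groups of 3 replicates. One genotype was the wild-type accession Col-0. The other was labelled rh6812 and is in the Col-0 ecotype. The label names the helicase genes RH6, RH8 and RH12, whose products belong to the DHH1/DDX6 family of RNA helicases that act on the decapping and translation of mRNAs. The labels do not give the alleles. In 12 libraries poly(A)+ RNA was sequenced with no agent applied, 6 of total RNA and 6 of polysome-bound RNA. In 30 libraries rRNA-depleted RNA was sequenced from seedlings given cordycepin, an adenosine analogue that stops transcription, and taken at 0, 15, 30, 60 or 120 min. The comparisons ask how the helicases bear on mRNA level, ribosome loading and decay.

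In total RNA, RH8 had 32.7 ± 0.165 CPM (read counts scaled to library size by TMM factors, mean ± SD, n = 3) in Col-0 and 2.84 ± 0.732 CPM under the label rh6812. The values of RH12 were 38.5 ± 1.96 and 24.4 ± 1.52 CPM. RH6 went against the label, at 54.5 ± 1.96 CPM in Col-0, against 132 ± 4.97 CPM in the libraries labelled rh6812. Every direction below is therefore that of the libraries with this label, whose name is shortened to rh6812. The poly(A)+ libraries held 4611462 to 30654342 counts each, the fewest in replicate 2 of rh6812 polysome RNA, and the rRNA-depleted libraries 11463206 to 22251739. The members had between 5 and 391 counts in a poly(A)+ library and between 5 and 309 in an rRNA-depleted one.

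Markers of other tissues also differed between the genotypes, and their part in the results below was not tested. The summed level of 6 shoot meristem markers in total RNA was 15.8 to 21.0 CPM in Col-0, against 24.1 to 27.4 CPM in rh6812. Of the 4 tested, 2 were higher in rh6812, STM and AIL6. In total RNA 32.2% of all genes tested were higher in rh6812 and 32.4% lower, against which the marker calls are read. WUS had 0 counts in both groups of total RNA. At 0 min after cordycepin the same sum was 12.7 to 17.3 CPM in Col-0, against 12 to 15.6 CPM in rh6812. The sum of 5 root meristem markers overlapped in total RNA, at 41.4 to 49.2 CPM in Col-0, against 42.1 to 51.7 CPM in rh6812, and of 4 tested PLT1 was lower. This root meristem sum did not overlap at 0 min, with 15.99 to 19.89 CPM in Col-0, against 14.59 to 15.17 CPM in rh6812. The 7 stomatal lineage markers summed to 32.8 to 34.9 CPM in Col-0 total RNA and 17.5 to 22.1 CPM in rh6812, and 5 were lower. In polysome RNA that sum was 19.4 to 26.7 CPM in Col-0, against 2.92 to 5.04 CPM in rh6812. All 7 were lower in rh6812 polysome RNA, where 33.3% of all genes tested were lower and MUTE and EPF1 had 0 counts. At 0 min the stomatal sum was 11.5 to 14.7 CPM in Col-0, against 9.69 to 11.9 CPM in rh6812. The 5 lateral root founder markers summed to 3.91 to 4.22 CPM in Col-0 total RNA and 2.27 to 2.79 CPM in rh6812, and of 2 tested 1 was lower. Green tissue markers summed to 16770 to 23930 CPM in Col-0 total RNA, against 27130 to 30680 CPM in rh6812. Differentiated root markers summed to 22.05 to 33.11 CPM in Col-0 total RNA, against 47.15 to 63.37 CPM in rh6812. In polysome RNA the differentiated root sum was only 1.93 to 3.11 CPM in Col-0, against 1.46 to 2.39 CPM in rh6812. Polysome and total RNA thus differed in these markers within each genotype. At 0 min the genotypes overlapped for both sums. Both lists were thus present in total RNA of both genotypes, as the label of whole seedlings requires. In such bulk samples fewer cells of a type and less RNA per cell cannot be told apart.

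Levels of the members were compared per kb of exon. In Col-0 total RNA the highest was CDKB2;1 at 6.20 ± 0.818 CPM per kb. CYCD3;1 at 4.83 ± 0.535, CYCB1;2 at 4.76 ± 0.582 and CYCB1;4 at 4.73 ± 0.342 CPM per kb followed, and these 3 did not differ beyond their spread. CDKB1;1 at 2.79 ± 0.598, CYCB1;1 at 2.71 ± 0.430, CYCA1;1 at 2.30 ± 0.232 and CDKB2;2 at 2.19 ± 0.125 CPM per kb formed a lower step with overlapping spreads. CDKB1;2 stood at 1.54 ± 0.318 CPM per kb, and CYCB2;1 was lowest at 0.582 ± 0.213 CPM per kb. In rh6812 total RNA the first and the last were the same, at 10.6 ± 0.682 and 0.684 ± 0.121 CPM per kb.

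The members, CYCD3;1 included, were mostly more abundant in rh6812 in both poly(A)+ populations. In total RNA 6 of the 10 were higher and 0 lower (edgeR's quasi-likelihood test with Benjamini-Hochberg adjustment over all genes, threshold 0.05, as for every call below). In polysome RNA 7 were higher and 0 lower. These counts are read against a background in which 32.2% of the 20949 genes tested were higher and 32.4% lower in total RNA, and 30.2% higher and 33.3% lower in polysome RNA. The median log2 change of the 10 was 0.55 in total RNA and 1.01 in polysome RNA, against −0.03 and −0.05 over all genes tested. All 3 rh6812 libraries lay above all 3 Col-0 libraries for 5 members in total RNA and for 6 in polysome RNA, where 33.8% and 31.0% of genes did so. By library size alone, without TMM factors, 4 members were called higher in total RNA and 5 in polysome RNA, the calls lost being those of CYCB1;2 and CDKB1;2 in the first and of CYCB1;1 and the D-type cyclin in the second.

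CYCB1;4 had the largest difference among the cyclins. In total RNA its 3 Col-0 libraries had 8.02, 8.60 and 9.27 CPM and the rh6812 libraries 13.6, 15.6 and 15.4 CPM. In polysome RNA the Col-0 libraries had 6.04, 6.97 and 4.55 CPM and the rh6812 libraries 14.7, 19.4 and 14.4 CPM. The genotypes did not overlap in either population. The log2 change was 0.80 ± 0.14 (SE) in total RNA (adjusted p = 6.1e-06) and 1.44 ± 0.15 in polysome RNA (adjusted p = 1.6e-09).

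CYCB1;2 had 7.49, 9.53 and 9.03 CPM in Col-0 total RNA and 9.36, 13.3 and 12 CPM in rh6812. The ranges touched, since the lowest rh6812 library was under the highest Col-0 library, and the log2 change was 0.44 ± 0.14 (adjusted p = 0.0080). Without replicate 1 of Col-0 total RNA it was no longer called (0.33, adjusted p = 0.079), and likewise without replicate 2 of rh6812 total RNA (0.32, adjusted p = 0.079). In polysome RNA the Col-0 libraries had 4.76, 5.25 and 5.42 CPM and the rh6812 libraries 11.3, 12.2 and 9.60 CPM. These groups were well apart, with a log2 change of 1.10 ± 0.17 (adjusted p = 1.1e-06).

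CYCB1;1, the B-type cyclin widely used as a reporter of dividing cells and also induced by DNA damage, differed less. In total RNA it had 4.08, 5.23 and 3.96 CPM in Col-0, against 4.68, 4.46 and 4.41 CPM in rh6812, with a log2 change of 0.01 ± 0.19 (adjusted p = 0.96). In polysome RNA the Col-0 libraries had 4.25, 3.97 and 4.96 CPM and the rh6812 libraries 5.84, 4.13 and 7.92 CPM. The groups overlapped, and the log2 change of 0.48 ± 0.20 passed the threshold (adjusted p = 0.039). Without replicate 3 of rh6812 polysome RNA, the highest of the 3, the change was 0.30 (adjusted p = 0.25), and it was also not called without replicate 1 or 2 of Col-0 polysome RNA.

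CYCA1;1, an A-type cyclin of the mitotic group, had 3.76, 4.61 and 4.20 CPM in Col-0 total RNA and 6.11, 5.03 and 5.20 CPM in rh6812. The libraries did not overlap, but the log2 change of 0.37 ± 0.19 did not pass the test (adjusted p = 0.087). In polysome RNA it had 2.60, 3.86 and 2.59 CPM in Col-0, against 6.14, 6.32 and 3.84 CPM in rh6812, a log2 change of 0.92 ± 0.22 (adjusted p = 0.00059). Replicate 3 of rh6812, at 3.84 CPM, lay just under the highest Col-0 library. CYCB2;1, a B-type cyclin near the detection limit, had a log2 change of 0.25 ± 0.38 in total RNA (adjusted p = 0.57). In polysome RNA it had 0.236, 0.536 and 0.692 CPM in Col-0, against 0.558, 1.46 and 1.56 CPM in rh6812, a log2 change of 1.17 ± 0.52 that missed the threshold (adjusted p = 0.052). This cyclin lay close to the threshold and depended on single libraries: it was called with DESeq2's size factors (adjusted p = 0.046), with DESeq2's Wald test (adjusted p = 0.037), without the filter on low counts (adjusted p = 0.044) and with the replicate block (adjusted p = 0.023). It was also called without replicate 3 of Col-0 polysome RNA (1.63, adjusted p = 0.020) or without replicate 1 of rh6812 polysome RNA (1.81, adjusted p = 0.0074), and the change ran from 0.65 to 1.81 over the fits that left out 1 library.

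The D-type cyclin CYCD3;1 had the reverse order of effects, with the larger change in total RNA. Its Col-0 libraries had 7.95, 9.92 and 9.27 CPM in total RNA and the rh6812 libraries 16.5, 17.1 and 12.7 CPM. In polysome RNA it had 9.12, 8.25 and 7.90 CPM in Col-0, against 10.5, 12.9 and 11.6 CPM in rh6812. The genotypes were apart in both populations, with log2 changes of 0.77 ± 0.13 (adjusted p = 7.6e-06) and 0.42 ± 0.15 (adjusted p = 0.016). The second was not called without replicate 3 of Col-0 polysome RNA (0.37, adjusted p = 0.060). The difference between these changes was −0.35 ± 0.20 and did not pass the test (adjusted p = 0.31).

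The CDKB2 kinases, which are most abundant around mitosis, were higher in rh6812 in both populations. The first, CDKB2;1, had 7.21, 9.34 and 8.87 CPM in Col-0 total RNA and 13.4, 15.3 and 14.7 CPM in rh6812, a log2 change of 0.78 ± 0.13 (adjusted p = 3.1e-06). In polysome RNA this kinase had 6.42, 6.86 and 6.11 CPM in Col-0, against 17.9, 15.1 and 14.9 CPM in rh6812, a log2 change of 1.34 ± 0.14 (adjusted p = 1.2e-09). CDKB2;2 had 3.17, 3.14 and 2.85 CPM in Col-0 total RNA and 3.93, 5.60 and 4.98 CPM in rh6812. In polysome RNA the latter had 2.06, 3.32 and 3.06 CPM in Col-0, against 7.36, 6.81 and 6.12 CPM in rh6812. The genotypes did not overlap for either kinase, and the changes of the latter were 0.67 ± 0.19 (adjusted p = 0.0032) and 1.35 ± 0.21 (adjusted p = 2e-06).

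The CDKB1 kinases, which are expressed from DNA synthesis through mitosis and are known for their part in the stomatal lineage, differed less clearly. CDKB1;1 had 3.03, 3.84 and 4.67 CPM in Col-0 total RNA and 3.17, 3.76 and 3.31 CPM in rh6812, a log2 change of −0.13 ± 0.21 (adjusted p = 0.60). Its change in polysome RNA was 0.40 ± 0.27 (adjusted p = 0.20). CDKB1;2 had 1.90, 2.87 and 2.30 CPM in Col-0 total RNA and 2.72, 5.07 and 3.22 CPM in rh6812, a log2 change of 0.67 ± 0.24 (adjusted p = 0.016). This call was lost without replicate 2 of rh6812 total RNA, its highest library (0.35, adjusted p = 0.26), and without replicate 1 of Col-0 total RNA (0.50, adjusted p = 0.11). In polysome RNA its log2 change of 0.60 ± 0.29 did not pass the test (adjusted p = 0.072), and it was called without replicate 2 of rh6812 polysome RNA (0.72, adjusted p = 0.041). The members of each CDKB pair are close in sequence, so reads could be split between them.

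**Figure D1:**
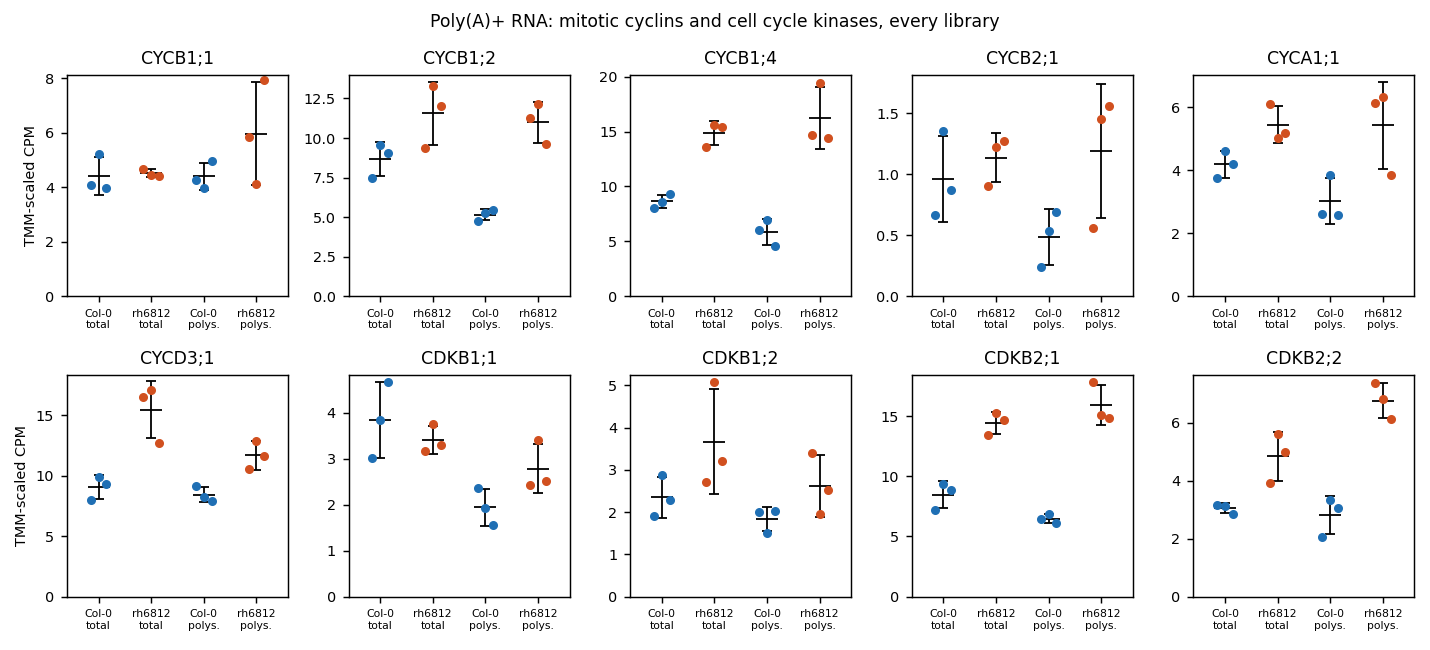
TMM-scaled CPM of each member in the 12 poly(A)+ libraries, by genotype (Col-0 blue, rh6812 orange) and by total or polysome RNA. Points are libraries and bars the mean ± SD of 3 replicates, and each panel has its own axis from 0. For the CDKB2 kinases and CYCB1;4 every rh6812 library sits above every Col-0 library of the same RNA population.

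**Figure D2:**
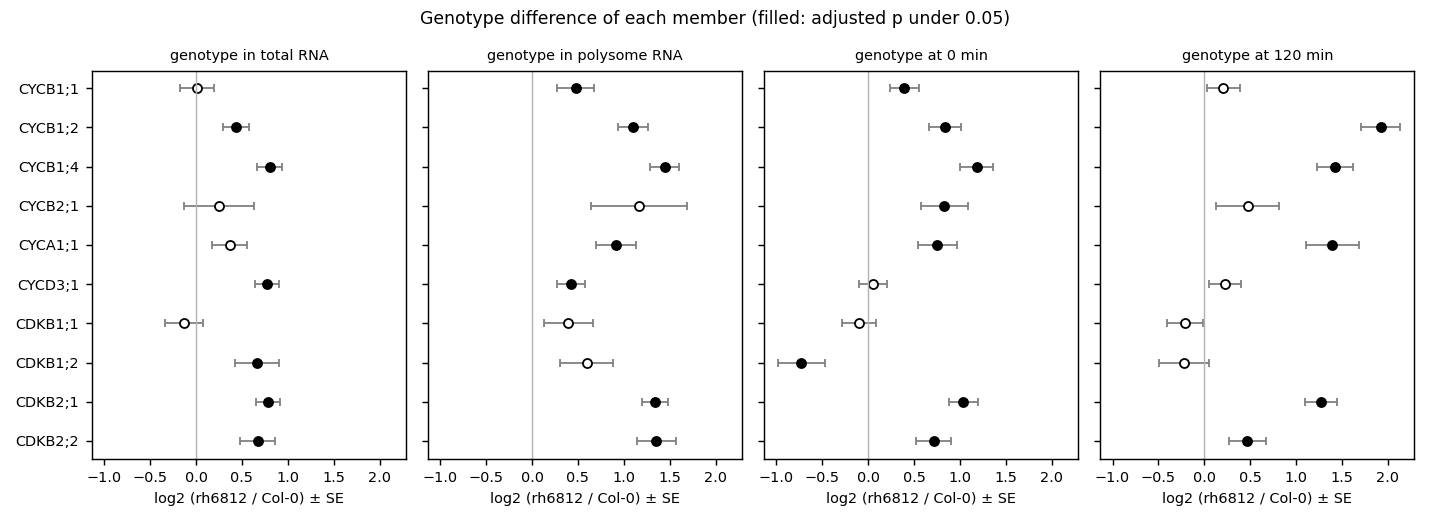
Log2 change of each member in rh6812 over Col-0 with its SE, in total RNA, polysome RNA, and rRNA-depleted RNA at 0 and 120 min after cordycepin. Filled points passed an adjusted p of 0.05. CYCB1;4 is filled in all 4 panels, and CDKB1;1 in none.

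Ribosome association, the term of the model in which genotype and RNA population interact, asks whether the polysome-to-total ratio differed between the genotypes. It is built from the same 12 libraries as the changes above. Tissue markers also differed between polysome and total RNA, and their part in this ratio was not tested. Of the 10 members 2 had a higher ratio in rh6812 and 0 a lower one, where 3.30% of all genes were higher and 6.45% lower. The median of the 10 was 0.55, against −0.05 over all genes tested. These 2 were CYCB1;2 at 0.66 ± 0.22 (adjusted p = 0.049) and CYCB1;4 at 0.64 ± 0.21 (adjusted p = 0.042). The CDKB2 kinases at 0.55 ± 0.19 (adjusted p = 0.060) and 0.68 ± 0.29 (adjusted p = 0.14) and the B2-type cyclin at 0.92 ± 0.64 (adjusted p = 0.43) missed the threshold. Both calls lie close to the threshold. The first was not made in 9 of the 12 fits that left out 1 library, over which its value stayed between 0.58 and 0.81, and the second was not made in 7 of the 12, at 0.50 to 0.79.

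Within Col-0, 6 of the 10 members were lower in polysome than in total RNA and 0 were higher, where 27.0% of all genes were lower and 30.7% higher, and the median of the 10 was −0.46 against 0.04 over all genes. CYCB1;2, with the polysome and total values given above, differed by −0.76 ± 0.16 (adjusted p = 0.00011), and CYCB1;4 by −0.57 ± 0.15 (adjusted p = 0.0017). CDKB1;1 had 2.36, 1.93 and 1.56 CPM in Col-0 polysome RNA, all below its 3 total RNA libraries, a log2 difference of −0.91 ± 0.23 (adjusted p = 0.0010). The B2-type cyclin differed by −1.13 ± 0.46 (adjusted p = 0.035), the A-type cyclin by −0.54 ± 0.21 (adjusted p = 0.026) and CDKB2;1 by −0.39 ± 0.14 (adjusted p = 0.017). Those last 3 were not called without replicate 2 of Col-0 total RNA, which left 3 calls of the 10, and their calls also depended on single libraries of Col-0 polysome RNA. Without replicate 1 of these the B2-type and the A-type cyclin were not called, and without replicate 3 the A-type cyclin and the kinase were not. The B2-type cyclin was not called by DESeq2's Wald test either, with a log2 difference of −1.11 and an adjusted p of 0.059. The D-type cyclin differed by −0.09 ± 0.14 (adjusted p = 0.62) and CYCB1;1 by −0.01 ± 0.19 (adjusted p = 0.96).

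Within rh6812 the same ratio was lower for 1 member and higher for 1, where 27.2% of all genes were lower and 26.0% higher, and the median of the 10 was −0.04 against −0.01 over all genes. The D-type cyclin was the one lower on polysomes, at −0.44 ± 0.14 (adjusted p = 0.011), and CDKB2;2 the one higher, at 0.48 ± 0.20 (adjusted p = 0.038). The call of the cyclin was lost without replicate 1 of rh6812 polysome RNA or replicate 1 or 2 of rh6812 total RNA. That of the kinase was lost without replicate 1 of rh6812 polysome RNA or replicate 1 or 3 of rh6812 total RNA. CYCB1;2, lower on polysomes in Col-0, stood at −0.10 ± 0.15 (adjusted p = 0.61) in rh6812, and the A-type cyclin at 0.01 ± 0.20 (adjusted p = 0.96).

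In the rRNA-depleted libraries taken at 0 min, 7 of the 10 members were higher in rh6812 and 1 was lower, where 24.4% of 21486 genes were higher and 24.0% lower. The median log2 change was 0.73, against −0.02 over all genes tested. The genotypes did not overlap for the same counts of members, 7 above and 1 below, where 26.9% and 27.1% of genes did so. This library kind was made with another kit and was not fitted together with the poly(A)+ set.

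CYCB1;4 had 4.44, 6.23 and 4.11 CPM in Col-0 at 0 min and 11.9, 11.9 and 9.65 CPM in rh6812, a log2 change of 1.18 ± 0.17 (adjusted p = 3.9e-06). CDKB2;1 had 4.23, 5.65 and 3.80 CPM in Col-0, against 9.49, 8.23 and 10.2 CPM in rh6812, a change of 1.04 ± 0.16 (adjusted p = 5.3e-06). CYCB1;2 had 6.50, 9.00 and 6.79 CPM in Col-0, against 12.7, 14.8 and 12.4 CPM in rh6812, a change of 0.84 ± 0.17 (adjusted p = 0.00027). For these 3 genes the rh6812 libraries were all well above those of Col-0. The B2-type cyclin changed by 0.83 ± 0.26 (adjusted p = 0.0090), the A-type cyclin by 0.75 ± 0.21 (adjusted p = 0.0044) and CDKB2;2 by 0.71 ± 0.19 (adjusted p = 0.0030). CYCB1;1 at 0.39 ± 0.16 (adjusted p = 0.045) was not called in 5 of the 6 fits that left out 1 library of either group at 0 min.

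A kinase and a cyclin stood apart from their poly(A)+ results at 0 min. CDKB1;2, higher in rh6812 in poly(A)+ total RNA, was lower at 0 min, with 2.22, 1.57 and 1.47 CPM in Col-0, against 1.16, 0.940 and 1.05 CPM in rh6812. Its log2 change was −0.73 ± 0.25 (adjusted p = 0.019), and it was not called without replicate 1 of Col-0 (−0.53, adjusted p = 0.12) or without replicate 2 or 3 of rh6812, nor by library size alone. The D-type cyclin, higher in both poly(A)+ populations, had 6.40, 7.22 and 7.60 CPM in Col-0, against 7.53, 6.88 and 7.60 CPM in rh6812 at 0 min, a change of 0.05 ± 0.15 (adjusted p = 0.79). The difference between library kinds was not tested. The other CDKB1 kinase was at −0.10 ± 0.18 (adjusted p = 0.67).

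At the later times the rh6812 libraries lay above all those of Col-0 for 6 members at 15, 30 and 60 min, where 27.6%, 27.5% and 29.7% of genes did so, and for 5 at 120 min, where 32.3% did. For 1 member, CDKB1;2, they lay below at 15, 30 and 60 min, where 28.8%, 29.7% and 29.2% of genes did so. At 120 min 5 members were called higher and 0 lower, where 29.8% of genes were higher and 26.8% lower, with a median of 0.47 against 0.03 over all genes. Without TMM scaling, by library size alone, 8 members were called higher, but the median of all genes then also moved to 0.42. CYCB1;2 had 2.16, 2.58 and 1.99 CPM in Col-0 at 120 min and 10.2, 8.89 and 6.61 CPM in rh6812, so the lowest rh6812 library was above the highest of Col-0, and the change was 1.92 ± 0.21 (adjusted p = 2.5e-08). CYCB1;4 changed by 1.42 ± 0.20 (adjusted p = 1.1e-06), the A-type cyclin by 1.39 ± 0.29 (adjusted p = 0.00021) and CDKB2;1 by 1.27 ± 0.17 (adjusted p = 7.7e-07). CDKB2;2 at 0.47 ± 0.20 (adjusted p = 0.046) lost its call in 5 of the 6 fits that left out 1 library of either group at 120 min.

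Loss of the transcripts after cordycepin was followed by fitting a line to log2 abundance over time, in log2 units per hour. TMM scaling sets each library against the bulk of its transcripts, so a slope of 0 means loss at the bulk rate and not an absolute half-life. Percentages left are likewise relative to the bulk, so they are not absolute amounts and do not compare absolute loss between the genotypes. In Col-0 6 members had a negative slope and 0 a positive one, where 27.4% of 21313 genes were negative and 23.5% positive. In rh6812 6 were again negative and 0 positive, where 11.6% and 10.2% of genes were. The members' median slope was −0.34 in Col-0 and −0.26 in rh6812, against −0.01 and 0.00 over all genes. The negative slopes were those of 5 of the 6 cyclins and CDKB2;1 in Col-0 and of all 6 cyclins in rh6812, while the CDKB1 kinases and CDKB2;2 passed the test in neither genotype.

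The A-type cyclin and CYCB1;2 had the steepest slopes in Col-0. The A-type cyclin fell in Col-0 from 3.20, 3.61 and 2.77 CPM at 0 min to 1.42, 1.51 and 1.34 CPM at 60 min and to 1.23, 0.530 and 0.818 CPM at 120 min, when 27.0% of its mean at 0 min was left. In rh6812 it went from 5.75, 6.17 and 4.30 CPM at 0 min to 3.46, 1.85 and 1.52 CPM at 120 min, with 42.1% left. Its slopes were −0.95 ± 0.13 in Col-0 (adjusted p = 2.5e-07) and −0.56 ± 0.10 in rh6812 (adjusted p = 0.00022). Their difference of 0.40 ± 0.16 did not pass the test (adjusted p = 0.10), and it was 0.12 without the first rh6812 series (adjusted p = 0.65) and 0.22 without the second Col-0 series (adjusted p = 0.48).

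CYCB1;2 was the only member whose slope differed between the genotypes by the test of the difference. In Col-0 it had 2.71, 3.90 and 2.04 CPM at 60 min and 2.16, 2.58 and 1.99 CPM at 120 min, with 30.2% of its 0 min mean left. In rh6812 it had 10.8, 11.3 and 9.79 CPM at 60 min and 10.2, 8.89 and 6.61 CPM at 120 min, with 64.4% left. At these times every rh6812 library, the lowest at 6.61 CPM, lay above every Col-0 library, the highest at 3.90 CPM. Its slopes were −0.92 ± 0.10 in Col-0 (adjusted p = 7e-09) and −0.32 ± 0.08 in rh6812 (adjusted p = 0.0053), and they differed by 0.60 ± 0.13 (adjusted p = 0.0017). Of the 10 members 1 was thus called for the difference, where 9.39% of genes had a higher and 4.63% a lower slope in rh6812, and the median difference of the 10 was 0.13. The call held in each fit that left out 1 replicate series.

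The other cyclins had negative slopes in both genotypes or in one. CYCB1;4 had −0.45 ± 0.09 in Col-0 (adjusted p = 9.9e-05) and −0.27 ± 0.08 in rh6812 (adjusted p = 0.0089). Its level fell to 56.2% of the 0 min mean in Col-0 and to 68.0% in rh6812 at 120 min. The D-type cyclin had −0.42 ± 0.08 (adjusted p = 3.1e-05) and −0.32 ± 0.07 (adjusted p = 0.0023), with 58.2% and 65.4% left. With times up to 60 min its rh6812 slope was not called (−0.14, adjusted p = 0.66). The B2-type cyclin had −0.37 ± 0.15 in Col-0 (adjusted p = 0.041), which was not called without Col-0 replicate series 1 (−0.23, adjusted p = 0.30) or 2, with DESeq2's size factors (adjusted p = 0.062) or its Wald test (adjusted p = 0.094), with times up to 60 min or without the 0 min samples. In rh6812 it had −0.70 ± 0.13 in rh6812 (adjusted p = 0.00034). CYCB1;1 had −0.21 ± 0.09 in Col-0 (adjusted p = 0.052) and −0.25 ± 0.09 in rh6812 (adjusted p = 0.036), where its call was lost in each fit that left out 1 series. In rh6812 the slopes of the B1-type cyclins called in both genotypes were also not called without replicate series 3 (−0.24, adjusted p = 0.10, and −0.19, adjusted p = 0.15), which left 3 of the 6 calls, and CYCB1;4 also not without series 1.

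In Col-0 the D-type cyclin had 8.04, 5.74 and 8.16 CPM at 15 min, 5.55, 5.68 and 5.53 CPM at 30 min, 5.55, 4.43 and 5.11 CPM at 60 min and 4.63, 3.05 and 4.67 CPM at 120 min. In rh6812 it had 6.98, 6.46 and 8.89 CPM at 15 min, 6.89, 7.19 and 8.79 CPM at 30 min, 5.89, 6.51 and 7.69 CPM at 60 min and 5.19, 4.45 and 4.76 CPM at 120 min. The rh6812 libraries lay above those of Col-0 at 30 and 60 min and overlapped them at 0, 15 and 120 min. The slopes differed by 0.10 ± 0.11 (adjusted p = 0.58). The A-type cyclin by contrast was apart throughout, with 2.52, 2.65 and 2.34 CPM in Col-0, against 3.24, 3.90 and 4.16 CPM in rh6812 at 15 min. At 30 min it had 2.40, 2.16 and 1.72 CPM in Col-0, against 3.69, 3.51 and 3.76 CPM in rh6812. The B2-type cyclin, the scarcest, had 0.929, 0.837 and 1.30 CPM in Col-0 at 0 min and 0.370, 0.331 and 0.876 CPM at 120 min. In rh6812 it went from 1.60, 2.12 and 1.81 CPM to 0.786, 0.834 and 0.657 CPM, so that the genotypes were apart at the start and overlapped at the end.

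Of the kinases, CDKB2;1 had a slope of −0.31 ± 0.08 in Col-0 (adjusted p = 0.0011), with 68.6% left at 120 min, and of −0.16 ± 0.07 in rh6812 (adjusted p = 0.089), with 82.4% left. With times up to 60 min its Col-0 slope was not called (−0.23, adjusted p = 0.25). Relative to the bulk, CDKB2;2 stood at 111% of its 0 min mean in Col-0 and 95.0% in rh6812 at 120 min. Its slopes were 0.05 ± 0.09 (adjusted p = 0.68) and −0.06 ± 0.08 (adjusted p = 0.61). Its libraries ran from 1.52 to 2.27 CPM over all times in Col-0 and from 2.18 to 3.72 CPM in rh6812. The slopes of CDKB1;1 were −0.02 ± 0.08 (adjusted p = 0.89) and −0.15 ± 0.08 (adjusted p = 0.21). CDKB1;2 had −0.23 ± 0.11 (adjusted p = 0.094) and 0.07 ± 0.12 (adjusted p = 0.82). No slope of a kinase differed between the genotypes by the test.

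Over the first 30 min after cordycepin 0 of the 10 members were called in Col-0, where 11.1% of genes were called in either direction, and 3 had an unadjusted p under 0.05. In rh6812 0 were called, where 2.95% of genes were, and 1 had an unadjusted p under 0.05. DESeq2's Wald test also called 0 in both genotypes. CYCB1;2 changed by −0.52 ± 0.19 in Col-0 (adjusted p = 0.073). With the replicate number as a block, shared by same-numbered libraries of both genotypes, it was called in Col-0 (−0.53, adjusted p = 0.038). With a block for each genotype's series, which pairs only the time points of a series, it was called likewise (−0.52, adjusted p = 0.033). The A-type cyclin changed by −0.60 ± 0.24 (adjusted p = 0.11) in Col-0 and −0.56 ± 0.21 (adjusted p = 0.19) in rh6812.

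**Figure D3:**
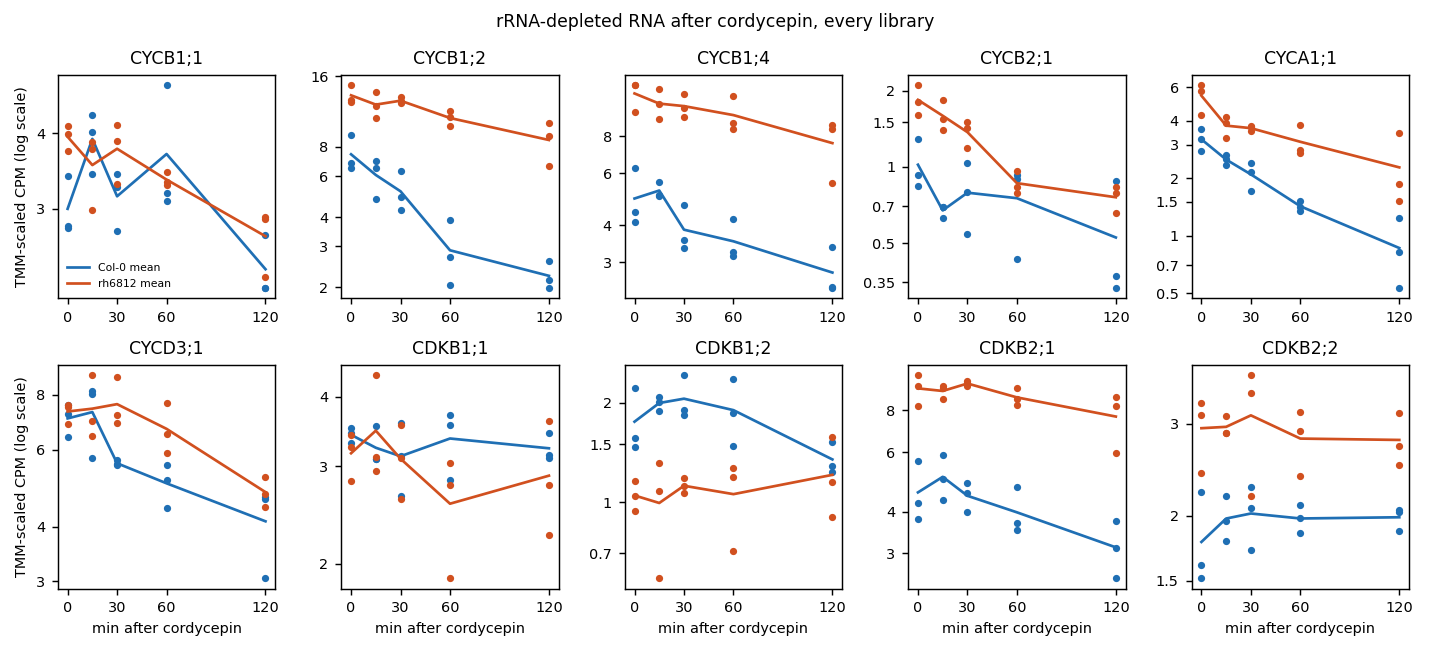
TMM-scaled CPM on a log axis against min after cordycepin for each member in the 30 rRNA-depleted libraries (Col-0 blue, rh6812 orange). Points are libraries, lines join the group means of 3 replicates, and each panel has its own axis range. Relative to the bulk of transcripts, CYCB1;2 goes to 30.2% of its 0 min mean in Col-0 and 64.4% in rh6812. On that scale CDKB2;2 stays near its starting level in both.

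**Figure D4:**
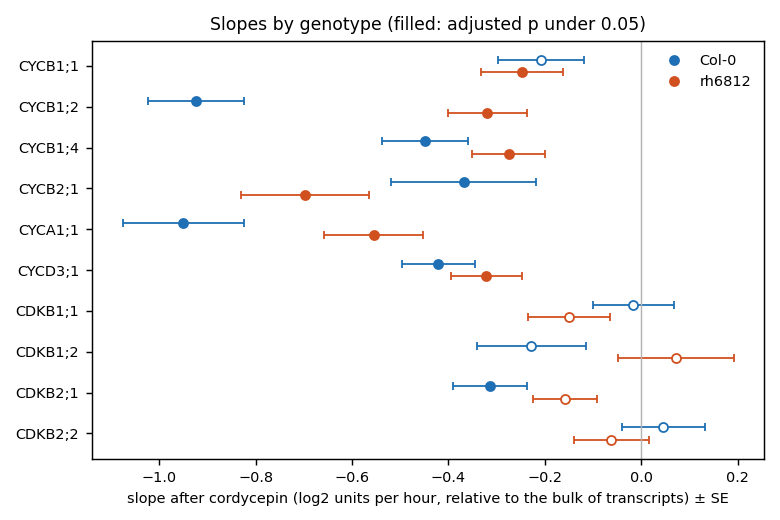
Slope of each member after cordycepin with its SE, in log2 units per hour relative to the bulk of transcripts, in Col-0 (blue) and rh6812 (orange). Filled points passed an adjusted p of 0.05. The pair at −0.92 and −0.32 is the one whose difference passed the test.

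Other genes of the cell cycle were examined as 8 lists with 103 genes. Their counts are read against all genes tested, of which 32.2% were higher and 32.4% lower in rh6812 total RNA. In polysome RNA 30.2% of all genes were higher and 33.3% lower. Of 13 tested other mitotic cyclins, 3 were higher and 3 lower in rh6812 total RNA, and 5 higher and 2 lower in polysome RNA, with medians of 0.10 and 0.38. CYCA2;2, of a cyclin class that partners CDKB1 kinases, had 1.15 ± 0.436 CPM in Col-0 total RNA, against 5.05 ± 0.678 CPM in rh6812, a log2 change of 2.07 ± 0.23 (adjusted p = 5.2e-09). CYCB1;3, another B1-type cyclin, changed by 1.06 ± 0.23 in total RNA (adjusted p = 0.00018) and by 2.1 ± 0.26 in polysome RNA (adjusted p = 3.8e-08). CYCA3;4, an A3-type cyclin, changed by −0.84 ± 0.17 in total RNA (adjusted p = 9.6e-05). Of 8 tested other D-type cyclins, 6 were higher and 0 lower in total RNA, and 4 higher and 0 lower in polysome RNA. CYCD4;2 changed by 2.05 ± 0.27 in total RNA (adjusted p = 9.1e-08) and CYCD1;1 by 0.79 ± 0.10 (adjusted p = 1.9e-08). At 0 min the latter was lower in rh6812, at −0.37 ± 0.14 (adjusted p = 0.030).

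The 7 other cell cycle kinases and kinase subunits were called in both directions. In total RNA 3 were higher and 4 lower, where 32.2% of all genes were higher and 32.4% lower. CKS1 and CKS2, small docking subunits of the kinases, changed by 0.80 ± 0.09 (adjusted p = 2.5e-09) and 1.07 ± 0.12 (adjusted p = 8.3e-09). CDKA;1, the main kinase that binds D-type cyclins, had 21.1 ± 0.524 CPM in Col-0, against 17.9 ± 0.767 CPM in rh6812, a change of −0.24 ± 0.09 (adjusted p = 0.026), and its slope in Col-0 was 0.25 ± 0.05 (adjusted p = 4.9e-05). Of 15 kinase inhibitors, which bind cyclin and kinase complexes, 9 were higher and 3 lower in total RNA, with a median of 0.82. In polysome RNA 6 were higher and 3 lower, where 30.2% of all genes were higher and 33.3% lower. KRP1 went from 18.6 ± 1.49 to 73.3 ± 9.97 CPM in total RNA (1.97 ± 0.10, adjusted p = 2e-16). SMR1 went from 5.66 ± 1.43 to 19.6 ± 2.23 CPM (1.83 ± 0.15, adjusted p = 4.2e-11). Both were thus higher in rh6812, with no overlap of the means' spreads.

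Genes of mitosis and cytokinesis were called almost entirely in the higher direction. Of 18, 8 were higher and 0 lower in total RNA (median 0.39), where 32.2% of all genes were higher and 32.4% lower. In polysome RNA 11 were higher and 1 lower (median 0.77), where 30.2% of all genes were higher and 33.3% lower. AUR1, an Aurora kinase of the spindle and cell plate, had 2.74 ± 0.319 CPM in Col-0 total RNA and 7.06 ± 0.392 CPM in rh6812, a change of 1.36 ± 0.17 (adjusted p = 3e-08). In polysome RNA AUR1 changed by 2.34 ± 0.19 (adjusted p = 2.4e-12). The spindle checkpoint genes MAD2 and BUBR1 changed by 0.55 ± 0.13 (adjusted p = 0.00048) and 0.84 ± 0.23 (adjusted p = 0.0019) in total RNA. CDC20.2, an activator of cyclin destruction whose near-identical neighbour CDC20.1 could share its reads, changed by 0.62 ± 0.14 (adjusted p = 0.00022).

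Within Col-0, 9 of these 18 mitosis genes were lower and 0 higher in polysome than in total RNA (median −0.54). Of 18 DNA replication genes 12 were higher and 0 lower (median 0.42). Over all genes 27.0% were lower and 30.7% higher. In rh6812 total RNA 6 replication genes were higher and 2 lower, with a median change of 0.03, where 32.2% of all genes were higher and 32.4% lower. RNR2A, a subunit of ribonucleotide reductase, changed by 0.80 ± 0.12 (adjusted p = 7.1e-07) and CDC6, which loads the replicative helicase, by −1.40 ± 0.23 (adjusted p = 3.3e-06). Of 13 cell cycle transcription factors 1 was higher and 3 lower in total RNA. MYB3R4, an activator of mitotic genes, was at 0.08 ± 0.20 (adjusted p = 0.74) in total RNA and at 0.70 ± 0.18 (adjusted p = 0.0019) at 0 min. Of 8 genes of the anaphase-promoting complex and its regulators, which destroy mitotic cyclins, 1 was higher and 2 lower in total RNA. CCS52A1, an activator of that complex, changed by −1.01 ± 0.16 (adjusted p = 2.5e-06).

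At 0 min 6 of 14 tested other mitotic cyclins were higher and 1 lower, and 5 of 18 mitosis genes were higher and 0 lower, where 24.4% of all genes were higher and 24.0% lower. AUR1 changed by 1.37 ± 0.16 (adjusted p = 1.6e-07). In the decay series 11 of 14 other mitotic cyclins had a negative slope in Col-0 (median −0.53) and 9 in rh6812 (median −0.29), with 0 positive in either. Over all genes 27.4% were negative and 23.5% positive in Col-0, and 11.6% negative and 10.2% positive in rh6812. Among them CYCB2;2 had a slope in Col-0 of −1.12 ± 0.13 (adjusted p = 2.5e-08). Of 15 kinase inhibitors 10 had a negative slope in Col-0 and 2 in rh6812, where 27.4% and 11.6% of all genes did. For 4 the slope was higher in rh6812 by the test of the difference, as for 9.39% of all genes. SMR1 had −1.19 ± 0.11 in Col-0 (adjusted p = 2e-10) and −0.06 ± 0.07 in rh6812 (adjusted p = 0.57), a difference of 1.13 ± 0.13 (adjusted p = 3.5e-07).

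**Figure D5:**
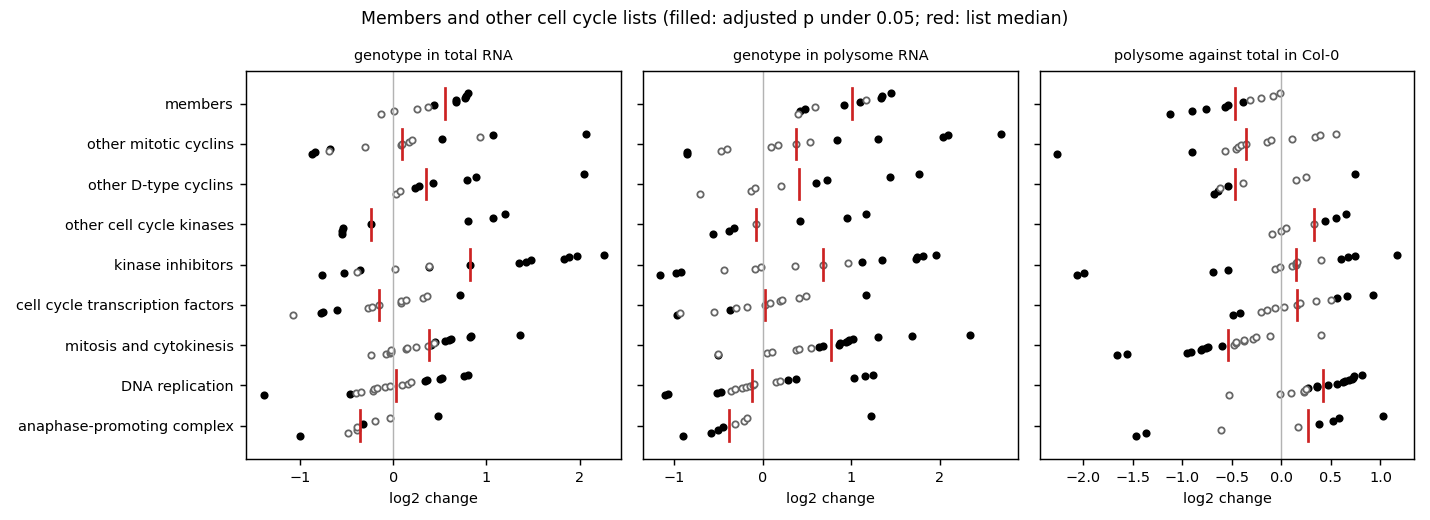
Log2 change of every tested gene in the 10 members and in 8 other cell cycle lists, for rh6812 over Col-0 in total RNA, the same in polysome RNA, and polysome over total RNA in Col-0. Each point is a gene, filled where the adjusted p was under 0.05, and the red bar is the list's median. In the right panel the members and most of the mitosis list lie to the left of 0, with medians of −0.46 and −0.54, and most of the DNA replication list to the right, at 0.42.

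Across the 14 group means, centred within each library kind, 5 of the 6 cyclins and CDKB2;1 followed the mean of the other members closely, with Pearson's r of 0.904 for CYCB1;2, 0.932 for CYCB1;4, 0.897 for the B2-type, 0.909 for the A-type and 0.840 for the D-type cyclin, and 0.909 for CDKB2;1. CDKB2;2 had r = 0.724, CYCB1;1 0.615, CDKB1;1 0.186 and CDKB1;2 −0.286. The groups share genotypes, libraries and normalisation, so these are descriptions. Among 15269 other genes the 5 with profiles most like the members' mean were AT3G02640 (r = 0.978), AT1G08230 (r = 0.977), ATK5 (AT4G05190, r = 0.970), ATH1 (AT4G32980, r = 0.970) and PAP15 (AT3G07130, r = 0.969).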

How the data were processed

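The deposited table held whole-number read counts per gene for 42 libraries, with no normalisation apparent in the values. The submitters' processing notes name TopHat2 2.0.14, Bowtie2 2.2.5 and the build TAIR10. The sources used here give neither a counting program nor a strand setting. Per the labels' protocols, 12 libraries were poly(A)+ selected and 30 were rRNA-depleted with another kit, so the kinds were fitted separately. No column was left out. For 212 loci there were no values in the poly(A)+ set.

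Counts were tested in R 4.3.3 with edgeR 4.0.16 (TMM factors, filterByExpr with a minimum count of 10 and a minimum total of 15, robust quasi-likelihood fit, two-sided, Benjamini-Hochberg adjustment over all genes tested, threshold 0.05). The poly(A)+ fit had 4 group means. The rRNA-depleted fits had 10 group means, or an intercept and slope for each genotype. Each SE was computed from the log2 value and the F statistic of its test. The scripts were tested on simulated data. Alternatives were library size alone, DESeq2's size factors and its Wald test (DESeq2 1.42.0), no filter, only the groups compared, a replicate block, shorter time courses and leaving out each library or series. Levels per kb used exon lengths of the TAIR10.1 annotation, and gene names came from its table, which held 27455 loci. No sequence or coordinate is given, because the reference build is not the one named, and the motif searches that had been planned were not run.

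Nothing in the labels says whether the replicates came from separate cultures. The p-values then reflect only how these samples vary, which may be technical variation. Replicates differed beyond counting noise (chi-square of at least 3.02 per degree of freedom), so none was a duplicate. Same-numbered libraries deviated together (every correlation over 0.1) in 9 of 16 pairs of groups, which include every pair of neighbouring time points within a genotype. The numbers were thus taken to pair times within a series. The main fits held no term for this pairing, which was modelled only in the alternatives with a block. For genotypes and RNA populations pairing is not settled. In rh6812 total against polysome RNA each library matched its own number best, with correlations of 0.103, 0.0688 and 0.102. Named are all 10 members, up to 4 genes of each list with the smallest p among those called in a comparison with their values elsewhere, and the 5 genes most like the members' mean. The single marker genes were named after their values were seen. The members and lists were chosen with earlier results of these data known.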

Additional observations from a re-analysis of the deposited data

Results flagged for a closer look

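Listed here are members and cell cycle genes for which the test of the difference between 2 effects passed the threshold of 0.05. The effect of genotype was larger in polysome than in total RNA for CYCB1;2 (log2 difference 0.66) and CYCB1;4 (0.64) among the members. The same held for CYCB1;5 (1.84), CYCB2;3 (1.23), AUR1 (0.98), CDC20.2 (0.69) and CYCD1;1 (0.65) among the other cell cycle genes. The calls of the 2 members lay close to the threshold. Over the 12 fits that left out 1 library, that of CYCB1;2 was lost in 9 and that of CYCB1;4 in 7. DESeq2's Wald test did not call CYCB1;2 either (adjusted p = 0.054). Reads of CDC20.2 could be shared with its neighbour CDC20.1.

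The slope after cordycepin was higher in rh6812 than in Col-0 for CYCB1;2, by 0.60 log2 units per hour. Among the kinase inhibitors it was higher for SMR1 (1.13), SIM (0.80), KRP3 (0.63) and KRP6 (0.55). Among the other mitotic cyclins it was higher for CYCA2;2 (0.53) and CYCB2;4 (0.44). It was also higher for TSO2, a ribonucleotide reductase subunit (0.62), for KN, a syntaxin of the cell plate (0.44), for CDC20.2 (0.39) and for HIK, a kinesin of cytokinesis (0.38). It was lower in rh6812 for OSD1 (−0.85), an inhibitor of the anaphase-promoting complex. No explanation was tested for any of these differences.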

How the results depend on the processing

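Of 1509 single-member values under alternatives, 1340 kept direction and side of the threshold, 84 lost a call, 29 gained one and 56 changed sign. None of the values that changed sign was called. In each case below where no construction of the alternative shows it, the cause was not tested.

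Counts of members called moved by over 1.5 times as follows. For ribosome association DESeq2's Wald test gave 1, and leaving out 1 library 0 to 3. For polysome against total RNA leaving out 1 library gave 3 to 6 in Col-0 and 0 to 3 in rh6812, where library size alone and the Wald test each gave 1. At 120 min library size alone gave 8, and leaving out 1 library 4 to 5. The early change in Col-0 had 2 with library size alone, 1 with the replicate block, 1 with a block for each series, and 0 to 1 without 1 library. The slope in rh6812 had 2 with times up to 60 min, and 3 to 6 without 1 series. Elsewhere leaving out 1 library or series gave 4 to 6 (total RNA), 6 to 8 (polysome RNA), 6 to 8 (0 min), 5 to 6 (slope in Col-0), 1 to 1 (slope difference) and 0 to 0 (early change in rh6812).

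The replicate block gave 3 members for ribosome association (CDKB2;1 joined, 0.56, adjusted p = 0.042), 8 in polysome RNA (CYCB2;1 joined, 1.21, adjusted p = 0.023) and 3 for polysome against total RNA in rh6812. In the paired slopes the block gave 6, 6 and 1, as without it, and in the early change in Col-0 it called CYCB1;2 (−0.53, adjusted p = 0.038), the one paired call of a member that it changed. This block is shared by same-numbered libraries of different genotypes or RNA populations, and whether those were paired is not settled.

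With library size alone the median of all genes moved from −0.03 to −0.18 in total RNA, from −0.02 to 0.20 at 0 min and from −0.01 to −0.19 for the slope in Col-0. Signs changed with it for CYCB1;1 in total RNA (−0.15), in the early change in Col-0 (−0.075) and in the slope difference (0.057). They changed likewise for CDKB1;2 in ribosome association (0.0054), at 120 min (0.18) and in the rh6812 slope (−0.015), and for CDKB1;1 at 0 min (0.12) and 120 min (0.18). For polysome against total RNA in rh6812 they changed for CYCB1;4 (−0.086), CYCA1;1 (−0.15) and CDKB2;1 (−3.9e-05), and for the Col-0 slope of CDKB2;2 (−0.13). CYCB1;1 in total RNA was at −0.0035 without the filter and −0.0084 with the block. With times up to 60 min the Col-0 slopes of CYCB1;1 (0.20), CDKB1;1 (0.0025) and CDKB1;2 (0.10) and the slope difference of CDKB1;2 (−0.074) changed sign. Without the 0 min samples the Col-0 slope of CDKB1;1 (0.045) and the slope difference of CYCB1;1 (0.064) did. The Col-0 slope of CDKB1;1 was 0.017 with DESeq2's size factors and 0.016 with its Wald test.

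Leaving out 1 library or series changed the sign of these small values, given as ranges. The early change in rh6812 ran from −0.033 to 0.12 for CDKB2;1, −0.060 to 0.12 for CYCD3;1, −0.13 to 0.024 for CYCB1;1, −0.16 to 0.070 for CDKB1;1, −0.12 to 0.0052 for CYCB1;2 and −0.046 to 0.29 for CDKB2;2. The early change in Col-0 ran from −0.16 to 0.15 for CDKB2;1. In total RNA CYCB1;1 ran from −0.061 to 0.16 and CYCB2;1 from −0.0061 to 0.63, and at 0 min CYCD3;1 from −0.013 to 0.12. Polysome against total RNA ran in rh6812 from −0.0066 to 0.18 for CYCB1;4, −0.14 to 0.22 for CYCA1;1, −0.19 to 0.013 for CYCB1;2 and −0.60 to 0.43 for CYCB2;1, and in Col-0 from −0.10 to 0.13 for CYCB1;1 and −0.31 to 0.040 for CDKB2;2. Ribosome association of CDKB1;2 ran from −0.30 to 0.24, its rh6812 slope from −0.052 to 0.20, and the Col-0 slope of CDKB1;1 from −0.046 to 0.055. Low counts limit CYCB2;1 and CDKB1;2, and counting error alone sets a floor on the precision of every member.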
